A study of Caenorhabditis elegans with 2 samples.

Results

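In a chromatin immunoprecipitation (ChIP-seq) experiment on GFP-tagged UNC-86 in Caenorhabditis elegans late embryos, 1489 weaker promoter peaks were found in the lists of both replicates. They were taken from a pooled list of 12784 peaks and background regions, called from the reads of both replicates together. A member is a pooled peak that is not among the 816 peaks of the list past the irreproducible discovery rate (IDR) threshold and that meets 3 conditions. Its summit lies within 100 bp of a summit in each replicate's own list, at most 1 kb from the start of a protein-coding transcript, and more than 300 bp from the midpoint of every tRNA, snoRNA, snRNA and miRNA gene. The members were thus chosen by the signal of the peaks (through the IDR list), the presence of a summit in each replicate and the distance to a start, and what follows on these 3 is a description.

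Both libraries come from strain OP476, genotype unc-119(tm4063) III; wgIs476, in which the integrated transgene wgIs476 expresses UNC-86 with a GFP-FLAG tag at its C-terminus; the sources used here do not name its promoter. They are biological replicates 1 and 2 of 1 group of whole hermaphrodite embryos, taken 3.5 h after synchronization by egg bleaching, and no second genotype or treatment was analysed here. Sonicated chromatin was pulled down with an anti-GFP antibody, and a control alignment entered each peak call. All values come from 1 transgenic line and from whole animals, so fewer cells with binding and weaker binding per cell cannot be told apart.

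UNC-86 is a transcription factor of the POU class IV (Brn-3) family, whose members hold a POU-specific domain and a POU homeodomain and bind AT-rich sites. In the nematode it acts in neuroblast lineages and in the identity of several kinds of neuron. In touch receptor neurons it works with the LIM homeodomain protein MEC-3 and activates the mec-3 gene. A promoter is the region around and upstream of a transcript start to which transcription factors and RNA polymerase bind.

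The peaks had a median pooled signal of 38.9 (interquartile range 33.9 to 47.5), in the authors' values for a peak relative to its control, and a median rank of 3086 in the pooled list. The strongest member, at gsp-2, had a signal of 64.71, just under the weakest peak of the IDR list at 64.74, and the lowest member had 25.7. At the distance limits, the nearest values inside and outside were 100 and 101 bp between summits, 1000 and 1002 bp from a start, and 314.5 and 287 bp from a small RNA gene. By the authors' −log10 q value, whose median was 0.256, 203 members (13.6%) reached 1, that is a q of 0.1 or lower, and 1286 did not. Most members thus were regions of low significance by the authors' own q value, as the name of the list, peaks and background, allows.

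Sequences around the summits are shown for 3 sets of members, to set those with the letters of a POU class IV site beside the strongest ones, which lack them. Each is the plus strand of the RefSeq genome (WBcel235, the ce11 build), 5′ to 3′, 50 bp to each side of the pooled summit, in lower case. Where a pattern was searched, its letters on either strand are in capitals. The POU class IV site ATAATTAAT was found within 100 bp of the summit in 17 members, among them bud-31 (chrIII:9695703-9695803), which encodes a splicing factor homolog, tba-8 (chrX:9459086-9459186), an alpha-tubulin gene, and nsph-3.2 (chrIV:10112724-10112824).
bud-31: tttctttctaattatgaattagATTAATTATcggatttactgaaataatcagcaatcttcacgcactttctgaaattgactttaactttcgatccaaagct
tba-8: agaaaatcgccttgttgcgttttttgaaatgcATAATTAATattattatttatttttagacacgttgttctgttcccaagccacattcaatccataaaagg
nsph-3.2: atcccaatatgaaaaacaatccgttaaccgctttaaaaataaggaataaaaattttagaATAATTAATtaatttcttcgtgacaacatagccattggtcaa
These 3 peaks had pooled signals of 40.5, 38.9 and 35.0, near the median of the members. In replicate 1 their signals were 17.8, 17 and 13.5, and in replicate 2 they were 21.5, 17.9 and 20.1. Their windows had a GC content of 28.7%, 30.7% and 26.7%. Over the windows of all 17 it ran from 20.8% at bet-1 to 52.5% at W03F8.4.

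Strong members without such a site are shown by gsp-2 (chrIII:7336350-7336450), which encodes a catalytic subunit of protein phosphatase PP1, sax-7 (chrIV:8066620-8066720), the L1-type cell adhesion molecule, rtfo-1 (chrV:9583039-9583139), the homolog of the elongation factor RTF1, and rpn-9 (chrII:11239078-11239178), a subunit of the proteasome lid.
gsp-2: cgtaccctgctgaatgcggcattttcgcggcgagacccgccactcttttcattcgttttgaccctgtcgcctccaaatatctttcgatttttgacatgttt
sax-7: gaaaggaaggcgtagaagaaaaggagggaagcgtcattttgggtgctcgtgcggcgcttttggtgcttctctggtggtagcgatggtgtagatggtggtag
rtfo-1: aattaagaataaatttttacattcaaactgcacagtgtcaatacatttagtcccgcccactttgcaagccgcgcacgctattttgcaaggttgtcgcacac
rpn-9: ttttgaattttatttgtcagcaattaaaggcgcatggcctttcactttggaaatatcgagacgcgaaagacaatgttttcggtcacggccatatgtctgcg
Their GC content was 48.5%, 53.5%, 41.6% and 41.6%, each above the mean of all members (37.2%, SD 7.82, over windows of 201 bp). The sax-7 value was just above the range of the 17 with a POU class IV site, and the others were inside it. The gsp-2 and rpn-9 summits lay between genes, 187 and 209 bp upstream of the start.

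A further set, chosen after its values had been seen, shows windows with an E2F site, a GAGA repeat and a POU subsite like that of mec-3. The E2F site GGCGGGAA is shown at tsr-2 (chrIV:16656400-16656500) and at Y116F11B.13 (chrV:19882291-19882391), the GAGA repeat GAGAGAGA at sti-1 (chrV:773412-773512), the homolog of the Hsp90 co-chaperone STIP1, and at T10B10.4 (chrX:15189415-15189515), and the subsite AAATGCAT at mnk-1 (chrII:10552942-10553042), which encodes a MAP kinase-interacting kinase.
tsr-2: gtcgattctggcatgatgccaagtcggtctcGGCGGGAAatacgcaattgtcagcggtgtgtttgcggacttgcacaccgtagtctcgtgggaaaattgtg
Y116F11B.13: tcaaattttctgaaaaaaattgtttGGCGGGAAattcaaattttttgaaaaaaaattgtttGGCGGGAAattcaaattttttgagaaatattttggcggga
sti-1: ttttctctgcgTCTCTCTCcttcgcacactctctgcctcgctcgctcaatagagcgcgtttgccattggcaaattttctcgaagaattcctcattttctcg
T10B10.4: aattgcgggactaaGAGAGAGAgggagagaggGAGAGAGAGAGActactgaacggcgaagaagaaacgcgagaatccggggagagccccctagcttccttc
mnk-1: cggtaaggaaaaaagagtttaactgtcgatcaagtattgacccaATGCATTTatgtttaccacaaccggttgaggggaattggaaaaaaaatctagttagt
In the tsr-2 window the E2F letters stood once, 15 bp from the summit, in a sequence of 53.5% GC. In the Y116F11B.13 window they recurred in a repeated AT-rich unit of an intron, at 27.7% GC. The same letters thus occurred in single-copy and in repeated sequence.

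The share of pooled promoter peaks that had a summit in both replicates fell steadily with the pooled rank. Away from small RNA genes and outside the IDR list, 5378 pooled peaks lay within 1 kb of a start. The 1489 members are 1 of 3 classes of these, beside 3361 peaks found in 1 replicate and 528 found in none. Of all 11968 pooled peaks outside the IDR list, at any position, 25.6% had a summit in both replicates. Among promoter peaks the share was 94.4% for ranks 1 to 816, the IDR list, 71.3% (469 of 658) for ranks 817 to 2000, and 48.5% (472 of 974) for ranks 2001 to 4000. It went on to 31.3% (279 of 890), 18.1% (157 of 868) and 8.96% (72 of 804) in the next bins of 2000 ranks, and ended at 3.38% (40 of 1184) for ranks 10001 to 12784. The share found in a single replicate's list fell less: from 98.6% to 37.6% in replicate 1, and from 95.8% to 42.4% in replicate 2. So most members, 941 of 1489, came from the first 4000 pooled ranks. The fall is in part fixed by construction. The pooled signal was close to the sum of the replicates' signals, and the lowest member signals in the replicates were 12.9 and 13.6. Peaks of the last bin had pooled signals of 25.6 to 27.7, which leaves little room for a summit in both lists. The fall is given as a description only.

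**Figure D1:**
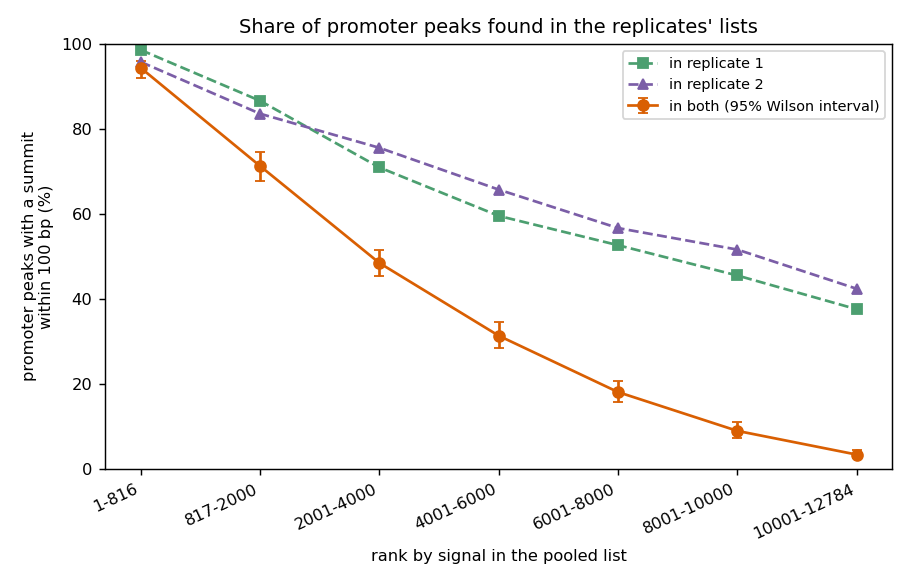
Share of pooled promoter peaks (percent, vertical axis) with a summit within 100 bp in replicate 1, in replicate 2 and in both, by rank in the pooled list (horizontal axis); bars are 95% Wilson intervals over peaks. The share found in both fell from 94.4% in ranks 1 to 816 to 3.38% in the last bin, and the shares of the single replicates to 37.6% and 42.4%. The pooled signal is close to the sum of the replicates' signals, so the fall is in part fixed by construction.

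Within each replicate the members were mostly modest peaks. In replicate 1 their signal ran from 12.9 to 48.8 with a median of 18.5, in a list whose median was 16.5, and their median rank was 5838 of 17498. In replicate 2 it ran from 13.6 to 54.6 with a median of 19.1, against a list median of 17.3, and the median rank was 6490 of 18470. In signal the median member thus stood a little above the median of either list. Among the 816 strongest peaks of a replicate were 39 members in replicate 1 and 40 in replicate 2, and no member was among them in both.

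The summits were close in position. The pooled summit lay a median of 15 bp from that of replicate 1 and 13 bp from that of replicate 2, and the replicates' summits lay a median of 39 bp from each other, with 879 (59.0%) within 50 bp. For the 469 IDR promoter peaks with a match in both replicates, the replicates' summits were a median of 25 bp from each other and 77.2% were within 50 bp. The rule limits these distances, and the pooled list was made from the same reads, so they describe how sharply placed the summits are and nothing more.

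The replicate signals of the members are given here as a description, since the rule bounds the pooled signal. Across the 1489 members rho (Spearman) between the signals was 0.238 and r (Pearson, of log2 signal) was 0.229, and across the 469 IDR promoter peaks they were 0.532 and 0.676. Both sets are peaks of the same libraries and share the control, and the IDR peaks span a wider range of pooled signal (64.7 to 838, members 25.7 to 64.71), so the values are not set against each other. The pooled signal was close to the sum of those in the replicates (the sum had a median of 0.989 times the pooled signal), so a narrow range of pooled rank lowers rho by construction. Within ranks 817 to 2000 rho was −0.43 (n = 469), within ranks 2001 to 4000 it was −0.54 (n = 472), and within ranks 4001 to 6000 it was −0.38 (n = 279). For ranks 6001 to 8000 it was −0.09 (n = 157), for ranks 8001 to 10000 0.00331 (n = 72) and for ranks 10001 to 12784 −0.23 (n = 40). Nothing is read from these values. The ranks of a member were within 2-fold of each other in 736 cases and over 10-fold apart in 64, and the rank was better in replicate 1 in 796 and in replicate 2 in 693.

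**Figure D2:**
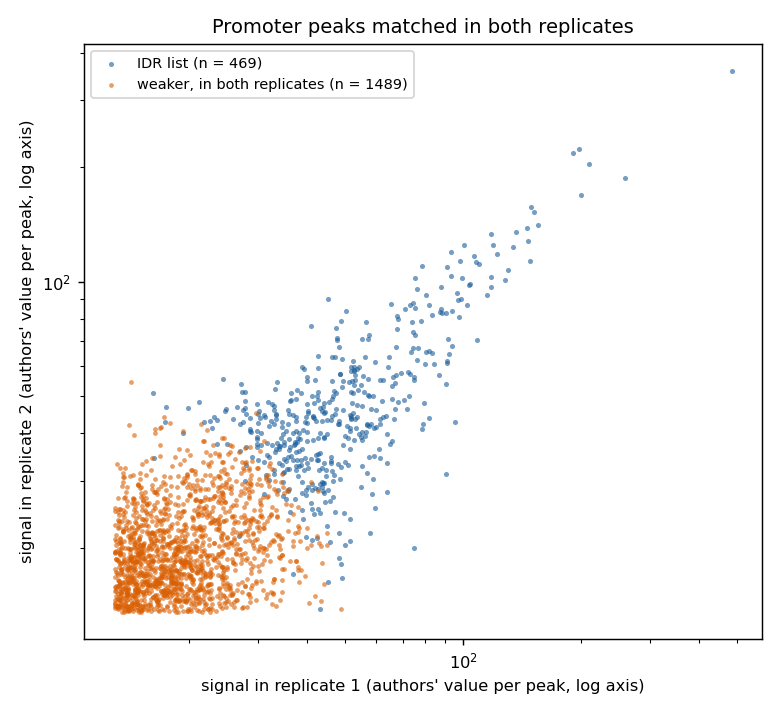
Signal of each promoter peak in replicate 1 (horizontal) and replicate 2 (vertical), on log axes, for the 1489 members and the 469 IDR promoter peaks matched in both replicates; each point is 1 peak. The members fill a block between 12.9 and 48.8 in replicate 1 and 13.6 and 54.6 in replicate 2 (rho 0.238), and the IDR peaks rise along the diagonal. The rule bounds the pooled signal of the members, so the shapes are not set against each other.

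Named members are given as examples. Some were chosen for the best rank in their weaker replicate. With a bounded pooled signal, that choice by itself favours nearly equal signals, so nothing is read from their equality. At rab-18, which encodes a Rab GTPase, the signal was 32.1 in replicate 1 and 33.5 in replicate 2 (pooled 63.7). At rsa-2, a centrosomal spindle assembly gene, it was 31.3 and 30.3 (pooled 58.9). At mars-1, the methionyl-tRNA synthetase gene, the values were 32 and 32.9, but the pooled signal was only 41.1 (rank 2532), well under their sum. At gsp-2 the replicates gave 28.9 and 33.8, and at rtfo-1 31.0 and 38.2. These 5 peaks had ranks from 1021 to 1322 in the list of replicate 1 and from 634 to 1155 in that of replicate 2. Others, chosen after their values had been seen for ranks far apart, stood high in 1 library and low in the other. At F54F2.6 the signal was 48.8 in replicate 1 (rank 394) and 13.8 in replicate 2 (rank 17751), with a pooled signal of 64.1. The gene F54F2.6 was also nearest to an IDR promoter peak, with a pooled signal of 97.9 (49.3 and 54.9). At Y17D7C.2 the signal of the member was 14.2 in replicate 1 (rank 13713) and 54.6 in replicate 2 (rank 281), with a pooled signal of 63.5. At ctns-1, the cystinosin gene, it was 14.1 and 42.1. The weakest members, at wdfy-2, cox-6B (a cytochrome c oxidase subunit) and epg-3, had pooled signals of 25.7, 25.7 and 25.8 and were weak in both libraries, at 13.4 and 15.3, 14.9 and 13.7, and 17 and 15.2.

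The rule bounds the distance to a start but not its side, and the members lay more often upstream. Of the 1489 summits, 940 (63.1%, 95% Wilson interval 60.6 to 65.5) were upstream of the nearest protein-coding start, 546 downstream and 3 at the start itself. Of all genome positions that meet the same distance conditions, 46.4% were upstream. In the IDR promoter peaks 91.5% (455 of 497) were upstream, and in weaker peaks of 1 replicate 58.1%. The median member summit was 114 bp upstream (interquartile range 362 bp upstream to 221 bp downstream), against 179 bp upstream in the IDR promoter peaks and 93 bp in weaker peaks of 1 replicate. Within 300 bp of the start were 737 members (49.5%), and 486 were more than 500 bp away. The positions were thus spread between those of the IDR list and those of the whole promoter region. Intervals here cover counting error over peaks only.

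**Figure D3:**
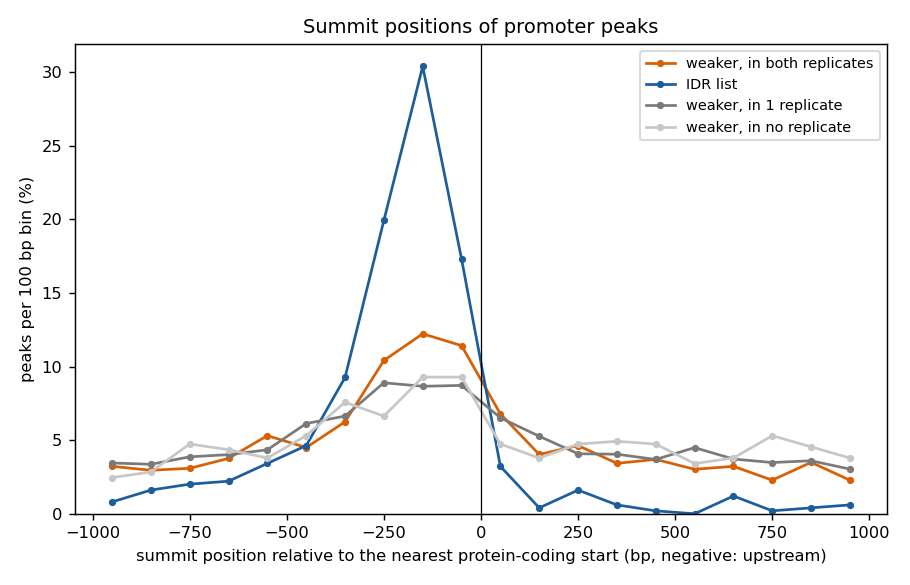
Percent of summits per 100 bp bin (vertical) by position relative to the nearest protein-coding start (horizontal, bp, negative upstream), for the members, IDR promoter peaks and weaker promoter peaks found in 1 or no replicate. The IDR peaks crowd upstream (91.5%), while the members show a lower hump upstream (63.1%) and a tail on both sides like that of the peaks found in 1 replicate (58.1%).

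The upstream share depended on rank, and at equal rank members and weaker peaks of 1 replicate were alike in the stronger bins. For ranks 817 to 2000 it was 76.3% in members and 74.2% in peaks of 1 replicate. For ranks 2001 to 4000 the shares were 63.3% and 63.1%, and for ranks 4001 to 6000 55.2% and 58.2%. For ranks 6001 to 8000 they were 43.9% (95% interval 36.4 to 51.8) and 57% (53.1 to 60.8), and in the last bins 54.2% and 55.7%, then 52.5% and 54.3%. Past rank 4000 the share of the members was the lower one in each bin. The higher pooled share of the members thus goes with their higher ranks. No test was run on these shares, because peaks of 1 experiment share their libraries and control and are not replicates.

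**Figure D4:**
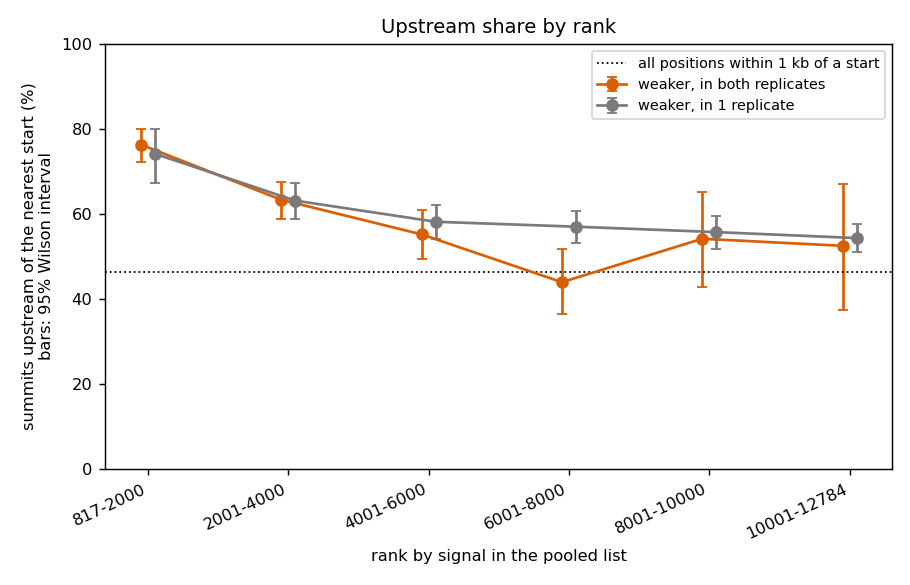
Percent of summits upstream of the nearest start (vertical) by rank in the pooled list (horizontal), for the members and for weaker promoter peaks found in 1 replicate, with 95% Wilson intervals; the dotted line is the share of all positions within the rule's distances (46.4%). The classes fall together from 76.3% and 74.2% in ranks 817 to 2000, and the members are the lower class in ranks 6001 to 8000 (43.9% against 57%).

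By the Ensembl annotation, 737 member summits (49.5%) lay between protein-coding genes, against 31.4% of all positions within the rule's distances and 82.7% of IDR promoter peaks. Introns held 491 (33%), close to their 32.7% of positions. Coding exons held 148 (9.94%), against 29.0% of positions and 0.805% of the IDR promoter peaks. The 5′ untranslated regions held 75 summits, the 3′ untranslated regions 36 and other exons 2. Between-gene summits fell from 65.9% of members in ranks 817 to 2000 to 31.2% in ranks 6001 to 8000, and were 40.3% and 40% in the bins after that. The GC content of the windows went from 39.6% in the first of these bins to 34.8% in the last. The members are promoter peaks by distance to a start, and about as many lay inside annotated protein-coding genes as between them.

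A large share of the summits was in sequence that the RefSeq genome marks as repetitive or of low complexity by lower case. The summit base was so marked in 602 members (40.4%, 95% interval 38 to 42.9), against 33.3% of all positions within the rule's distances, 19.1% of the IDR promoter peaks and 42.7% of weaker peaks of 1 replicate. By rank it was 34.1% of members in ranks 817 to 2000, 42.8%, 41.6%, 51.6% and 40.3% in the bins up to rank 10000, and 35% in the last. In 508 members (34.1%) more than 50% of the 201 bp window was marked. The sources used here do not say how reads that match several places were placed, and the part of such reads in the members' signal was not tested.

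The chromosomes held unequal numbers of members. Chromosome I had 291 (19.5%, with 14.4% of protein-coding genes) and chromosome III 288 (19.3%, with 13.2%). Chromosome V had 245 (16.5%, with 25% of genes) and X 174 (11.7%, with 13.7%), while II and IV were near their share of genes, at 16.8% and 16.2%. Of the IDR promoter peaks, 21.7% were on I, 21.9% on III, 13.9% on V and 9.26% on X.

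The POU class IV site was rare at the members, with shares between those of their flanks and those of promoters in general. The 9 letters ATAATTAAT, on either strand, stood within 100 bp of the summit in 17 members (1.14%), in 0.94% of flanking windows centred 500 bp to each side, and in 1.24% of windows of the same width 100 bp upstream of each of 29304 distinct protein-coding starts. The interval of the members, 0.714% to 1.82%, held both comparisons. In the IDR promoter peaks the share was 0.402%. The relaxed form ATNATTAAT, which includes the first, was in 40 members (2.69%, 95% interval 1.98 to 3.64), in 2.18% of flanks, in 2.89% of promoter windows and in 2.23% of weaker peaks of 1 replicate. Its centre lay a median of 50 bp from the summit and within 50 bp of it in 20 of the 40. Letters spread evenly over the 100 bp to each side would give about the same, so no centring on the summit is read from this. In 24 of the 40 every copy was in marked repetitive or low-complexity sequence.

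The members with the strict site were not the strong ones. The strongest was W03F8.4, at a pooled signal of 56.4 (27.1 in replicate 1 and 31.5 in replicate 2), with the site 88 bp from the summit. Next came F54D5.7 at 43.7, F54D5.15 at 42.1 and Y71F9AR.2 at 40.7, followed by bud-31 and tba-8, printed above. C25A1.15, pcf-11, C44B9.2, ZK666.15, Y75B8A.7 and nsph-3.2 had signals between 35.0 and 38.4. Among these, pcf-11 encodes a subunit of the machinery that cleaves and polyadenylates transcripts.

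The homeodomain core TAATTA, which lies within the strict site, was in 166 members (11.1%, interval 9.65 to 12.8). It was in 9.20% of flanks (interval 8.21 to 10.29) and in 11.5% of promoter windows. The share of the members was thus above that of flanks, with overlapping intervals, and close to that of promoter windows. Weaker peaks of no replicate also had a higher share at the summits (10.98%) than in flanks (8.24%). Those of 1 replicate were close to their flanks (9.55% and 9.28%), and IDR promoter peaks were below theirs (8.25% and 10.97%). The POU subsite AAATGCAT was in 30 members (2.01%, interval 1.41 to 2.86; flanks 1.75%, promoter windows 1.65%), and the octamer ATGCAAAT in 24 (1.61%, interval 1.09 to 2.39; 1.78% and 1.87%). A match is a description of letters and not a binding site, and the lack of one says only that these letters are not in the window.

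The Sp1-type box CCGCCC, the GAGA repeat and the E2F site were more frequent at the summits than in flanks. The Sp1-type box was in 98 members (6.58%, interval 5.43 to 7.96), in 3.79% of flanks and in 15.5% of IDR promoter peaks. Its interval held the share of promoter windows, 5.96%. The GAGA repeat was in 57 (3.83%, interval 2.97 to 4.93), in 2.18% of flanks, in 2.96% of promoter windows and in 6.44% of IDR promoter peaks, and it went from 5.76% of members in ranks 817 to 2000 to 1.79% in ranks 4001 to 6000. The E2F site GGCGGGAA, whose letters can overlap the complement of the Sp1-type box, was in 27 (1.81%, interval 1.25 to 2.63), in 0.604% of flanks, in 0.771% of promoter windows and in 1.81% of IDR promoter peaks. Of the 14 patterns the E2F letters had the largest ratio of summits to flanks, with a lower flank share than in the other classes. Flanks held them in 1.21% of windows for IDR promoter peaks, 1.10% for weaker peaks of 1 replicate and 0.947% for those of no replicate. At the summits of weaker peaks of 1 replicate their share was 1.34%, inside the interval of the members. Among members their share was lower in ranks 817 to 2000 (0.853%) than in ranks 2001 to 4000 (2.12%) and 4001 to 6000 (2.87%).

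E2F factors bind such letters at genes of DNA replication and the cell cycle. Of the 27 members, 17 were upstream of the nearest start, 12 were within 300 bp of it, and the pooled signals ran from 27 to 63.5 with a median of 36.2. Among them were spt-16 (42.7), a histone chaperone subunit of FACT, sld-5 (33.5), a subunit of the GINS replication complex, lem-2 (37.1), an inner nuclear membrane protein, deb-1 (42), the vinculin of muscle attachments, and hlh-14 (34.4), a proneural bHLH factor. The gene lem-2 was also nearest to an IDR promoter peak, with a pooled signal of 130.9. In 12 of the 27 every copy lay in marked repetitive or low-complexity sequence, as at Y116F11B.13 or Y48G9A.7, and 4 held more than 1 copy. With those 12 left out, 15 members (1.01%) remained, against 1.01% of IDR promoter peaks and 0.714% of weaker peaks of 1 replicate counted the same way.

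The GATA site TGATAA was less frequent at the members (202, 13.6%) than in flanks (17.3%) and in promoter windows (22.1%). The TATA box TATAAA was in 22.4%, between its flanks (19.3%) and promoter windows (28.3%). The E box CAGCTG (4.3%; flanks 4.53%), the G box CACGTG (3.90%; flanks 3.90%), the CRE TGACGTCA (0.940%; flanks 1.18%) and the tract TTTTTTTT (26.1%; flanks 23%) were close to their flanks.

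The 1489 members touched 1739 of 19973 protein-coding genes, 8.71%, counting a gene when a member summit lay within 1 kb of any of its starts. For weaker peaks of 1 replicate the share was 17.1% and for IDR promoter peaks 3.59%. A single member was near 1638 of these genes, and 101 had more, 7 of them 3 and none 4. The 7, named after their values were seen, are abts-1, arp-1, gcy-28, gsa-1, ins-36, unc-108 and unc-94. At gsa-1, which encodes the stimulatory G protein alpha subunit, the 3 summits had pooled signals of 60.8, 63.0 and 30.2, and at gcy-28, a receptor guanylate cyclase gene, 35.1, 33.5 and 35.9. Of the members, 339 lay within 1 kb of more than 1 gene, and 272 had such genes on both strands, so the gene a peak belongs to was often not unique. Of the 1739 genes, 85 also had an IDR promoter peak. Among these, with the pooled signal of the IDR peak, were lem-2 (130.9), his-37 (103.1), F54F2.6 (97.9), mars-1 (97.9), unc-76 (71.9), unc-112 (68.3) and pcf-11 (67.3). Genes with more annotated starts had a member more often. The share was 7.01% of 14723 genes with 1 start, 11.4% of 3311 with 2, 14.5% of 1460 with 3 or 4, and 25.05% of 479 with 5 or more.

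**Figure D5:**
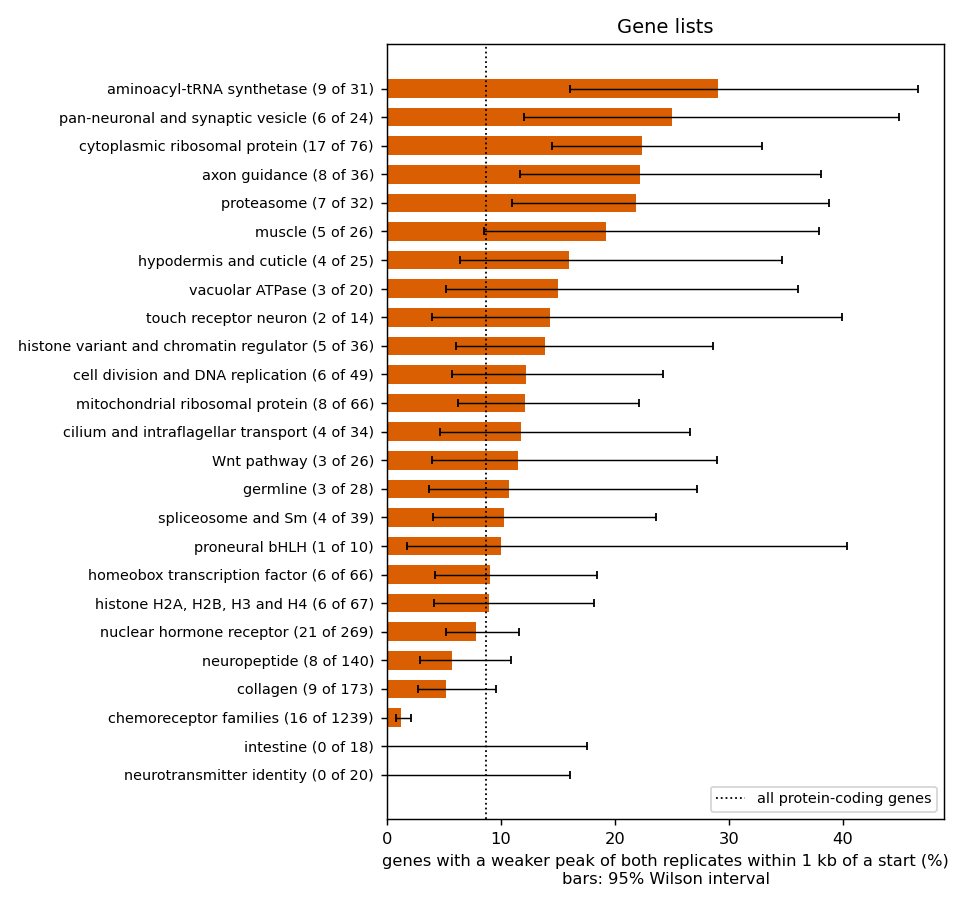
Percent of the genes of each of 25 lists with a member summit within 1 kb of a start (bars from 0; lines are 95% Wilson intervals over genes; counts in brackets), with the share of all protein-coding genes (8.71%) as a dotted line. Synthetase, pan-neuronal, ribosomal protein, axon guidance and proteasome lists have 21.9% to 29.0% with wide intervals, and the intestine and neurotransmitter identity lists have none.

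Of 2544 genes in 25 lists, 158 had a member within 1 kb of any start, and 133 when only the nearest start to each summit was counted. A list gene is thus not always the nearest gene of its peak. The interval lay above the share of all genes (8.71%) in 5 lists, below it in 1 and held it in 19. In the neuronal lists, 6 of 24 pan-neuronal and synaptic vesicle genes had one (25%, against 8.71% of all genes), and all 6 summits were upstream of the gene's start. They were rgef-1, a Ras exchange factor of neurons, with a pooled signal of 60.7 (35.8 in replicate 1 and 22.1 in replicate 2), ric-19, the homolog of the dense core vesicle protein ICA69, with 55.8 (22.8 and 33.6), and tbb-1, a beta-tubulin gene, with 49.8 (26.7 and 19.8). The others were unc-33, the CRMP homolog of axon outgrowth, with 39.7 (24.4 and 19.3), unc-2, a voltage-gated calcium channel, with 35.1 (13.4 and 17.3), and ehs-1, the Eps15 homolog of vesicle recycling, with 28.1 (13.7 and 13.8). The start nearest to the tbb-1 summit was that of rib-2. The count of 6 genes became 2 with summits within 50 bp, 2 at a −log10 q of 1, 9 with summits within 200 bp and 12 with either replicate left out. In this list 11 genes had a weaker peak of 1 replicate (45.8% against 17.1% of all genes), and the mean number of starts was 2.42 a gene against 1.47.

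Of 36 axon guidance genes 8 had a member (22.2%, against 8.71% of all genes). The count was 6 with summits within 50 bp, 4 within 500 bp of a start, 1 at a −log10 q of 1, and 16 with either replicate left out. The 8 genes are named next. They were sax-7 with 64.4, the netrin receptor unc-40 with 52.9 (34.4 and 19.2), the FEZ homolog unc-76 with 38.1 (14.9 and 22.8), the Trio-type exchange factor unc-73 with 37.1 (19.4 and 18.1), the ephrin vab-2 with 36.4, the lamellipodin homolog mig-10 with 35.5, the Ena homolog unc-34 with 34.1 and the plexin plx-1 with 31.3. Only unc-40 had its summit between genes. These genes had a mean of 3.31 starts and a median length of 9991 bp (all genes 1.47 and 2027 bp), and their part in the count was not tested. In the Wnt list 3 of 26 had a member (11.5%): the Frizzled receptors mig-1 (50.6) and cfz-2 (34.7) and the Nemo-like kinase lit-1 (41.4).

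At genes linked to UNC-86 itself, members were found in the touch receptor neuron list, where 2 of 14 genes had one (14.3%, interval 4.01 to 39.9, against 8.71% of all genes). They were mec-15, an F-box gene, with a signal of 34.1 (22 and 17.1) and mec-14 with 28.0 (14.4 and 14.2). No member lay within 1 kb of unc-86, mec-3 or unc-119. The nearest member was 4670 bp from a start of unc-86, with a signal of 49.6 (30.1 and 19.9) and C30A5.10 as its nearest gene. One weaker peak within 1 kb of unc-86, with a signal of 40, had a summit in replicate 2 only. The IDR list held 2 promoter peaks nearest to unc-86, with pooled signals of 72.8 (40.2 and 32.5) and 74.4 (45.3 and 28.4), so its promoter had stronger peaks than the members. The nearest member to mec-3 was 280789 bp away, and none of the 20 genes of neurotransmitter identity had one, which allows a share of up to 16.1% by the Wilson interval. Of 10 proneural bHLH genes only hlh-14 had a member (34.4; 13.2 in replicate 1 and 18.6 in replicate 2), 47 bp downstream of its start.

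Of 66 homeobox genes 6 had a member (9.09%), near the share of all genes: the Meis homolog unc-62 (61.8; 25.8 and 37), the Pbx homolog ceh-20 (53.7; 33.8 and 21.6), the Nkx6-type gene cog-1 (46.2; 29.6 and 14.6), ceh-51 (37.5), ceh-5 (36.6) and ceh-45 (34.3). In the cilium list 4 of 34 had one (11.8%): the kinesin-II subunits kap-1 (53.7; 37.4 and 18.5) and klp-11 (32.1), the zona pellucida-type protein gene dyf-7 (37.9) and ift-20 (36.5). None of these 4 lay between genes. Neuropeptide genes had a member in 8 of 140 cases (5.71%), led by ins-36 (43.4), nlp-20 (39.1), flp-15 (38.8) and nlp-53 (38.6).

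Ribosomal protein genes had members close upstream of their starts. Of 76 cytoplasmic ribosomal protein genes 17 had one (22.4%, interval 14.5 to 32.9, against 8.71% of all genes), and all 17 summits lay upstream of the gene, between genes and within 500 bp. The pooled signals had a median of 50.9, above that of all members (38.9). The strongest were rpl-11.2 with 62.7 (27.8 and 36.5), rpl-23 with 61.4 (28.6 and 36.8), rpl-1 with 55.0 (19.5 and 29.9) and rps-25 with 53.8 (29.9 and 22.8). In the same list 27 genes (35.5%, against 3.59% of all genes) had an IDR promoter peak and 31 (40.8%, against 17.1%) a weaker peak of 1 replicate, so the members were the smallest of the 3 classes there. These genes had few starts (mean 1.22). The count of 17 genes became 8 with summits within 50 bp, 5 at a −log10 q of 1 and 13 when summits had to be 1000 bp from small RNA genes. It was 14 with only the nearest start counted, 29 with summits within 200 bp, and 28 and 37 with replicate 1 and replicate 2 left out. Mitochondrial ribosomal protein genes had a member in 8 of 66 cases (12.1%), led by mrps-34 (61.8; 23 and 37.4), mrpl-28 (53.5), mrps-25 (51.8) and mrps-35 (50.4).

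The aminoacyl-tRNA synthetases, which load tRNAs with their amino acids, had a member at 9 of 31 genes (29.0%, against 8.71% of all genes). Beside these, 6 had a weaker peak of 1 replicate (19.4%, against 17.1%) and 4 an IDR promoter peak (12.9%, against 3.59%). The genes with a member are named next. They were fars-1 with 63.4 (40.9 and 20.4), nars-1 with 57.4 (26.3 and 25.9), yars-2 with 53.7 (24.2 and 27.8), kars-1 with 52.2 (34.3 and 21.2), mars-1, wars-1, hars-1, dars-1 and pars-2. Of the 9, 7 summits lay upstream. The count was 4 within 500 bp of a start, 5 with summits within 50 bp, 3 at a −log10 q of 1, and 12 with either replicate left out. With only the nearest start counted it was 6. The fars-1 summit was 914 bp from the start, in an annotated 3′ untranslated region. In the proteasome list 7 of 32 had a member (21.9%, against 8.71% of all genes), all within 500 bp of the start: rpn-9 with 64.3 (24.2 and 38.9), the ubiquitin receptor gene rpn-13 with 61.7 (27.2 and 33.6), the beta subunit genes pbs-4 with 57.4 (25.3 and 28.7) and pbs-7 with 45.1 (23.8 and 20.2), rpn-5, rpt-4 and rpt-6. This count became 4 with summits within 50 bp, 3 at a −log10 q of 1, and 10 and 12 with replicate 1 and replicate 2 left out. Of 20 vacuolar ATPase genes 3 had one, vha-13 (42.1), vha-8 (41.3) and vha-20 (29.9).

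The lists of nuclear functions had shares whose intervals held the 8.71% of all genes. Of 36 genes of histone variants and chromatin regulators 5 had a member (13.9%): mes-2, the histone H3K27 methyltransferase, with 61.6, lin-53, the RbAp46/48 homolog, with 57 (24.6 and 32.2), the SWI/SNF subunits swsn-1 (42.8) and swsn-4 (40.9), and let-418, a Mi-2 homolog (37.4). The starts nearest to the lin-53 and swsn-4 summits were those of nra-2 and spo-11. Of 39 spliceosome genes 4 had one (10.3%): sfa-1, the branch point binding factor SF1 (60.9; 31.8 and 29.8), snrp-27 (52), snr-6, an Sm protein (47.4), and rsp-7 (29.9). An IDR promoter peak was at 10 of the 39 (25.6%, against 3.59% of all genes). Of 49 cell division and replication genes 6 had a member (12.2%) and 26 a weaker peak of 1 replicate (53.1%, against 17.1% of all genes). The 6 were the cyclin-dependent kinase inhibitor cki-1 (56.3; 24.4 and 26.7), the DNA polymerase epsilon subunit pole-1 (49.8; 25.5 and 25.6), mcm-6 of the replicative helicase (40.5), the kinetochore gene ndc-80 (38.9), cdk-1 (31.6) and psf-1 (30.6). Of 67 core histone genes 6 had one, but these were 3 peaks, each shared by a pair of genes: his-31 with his-32 (54.3), his-3 with his-4 (39.3) and his-37 with his-41 (33.7). Copies of histone genes are nearly identical, so reads there cannot be assigned to 1 copy with certainty.

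In the tissue and receptor lists, apart from the chemoreceptor families, the intervals also held the 8.71% of all genes. Of 26 muscle genes 5 had one (19.2%): the integrin attachment genes unc-112 (48.1; 20.5 and 24.0), deb-1 (42; 17.3 and 22.1), pat-4 (40.7; 19 and 20.3) and pat-3 (39.4), and hlh-1, the MyoD homolog (40.1; 22.8 and 16.1). Of 25 hypodermis and cuticle genes 4 had one, nhr-25 (41.6), dpy-5 (39.3), dpy-17 (37.2) and dpy-10 (32.2), all 4 downstream of the start and inside the gene. Of 28 germline genes 3 had one, the RNA regulators cgh-1 (52.7), car-1 (42.6) and gld-1 (36.3), and of 18 intestine genes none did, which allows up to 17.6%. The starts nearest to the cgh-1 and car-1 summits were those of C07H6.9 and coa-5. Of 173 collagen genes 9 had a member (5.2%), led by col-71 (49.6), col-38 (47.6), col-72 (43.4) and col-99 (41.9). Of 269 nuclear hormone receptor genes 21 did (7.81%), led by nhr-3 (54.4), nhr-231 (51), nhr-15 (50.9) and nhr-64 (49.7), with 10 of 21 upstream. Chemoreceptor families had a member at 16 of 1239 genes (1.29%, interval 0.796 to 2.09, below that of all genes), led by sru-26 (41), srh-240 (38.4), sru-25 (37.9) and sra-2 (36.9), and 6.62% of them had a weaker peak of 1 replicate (17.1% of all genes).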

How the data were processed

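The deposited files are lists of peaks and background regions made by the authors for each replicate, for both replicates pooled, and past an IDR threshold. Per the file headers, a control alignment entered each call. Not given in the sources used here: aligner, caller, IDR threshold and read numbers; the depth of the libraries is therefore unknown. The signal of each peak is the authors' value relative to the control, and the −log10 q value is also as deposited by the authors. Both serve here to describe or order the peaks of 1 list. The ce11 lists were used, with Ensembl release 115 (WBcel235) and the RefSeq genome, whose lower case letters mark repetitive or low-complexity sequence. The ce10 lists served as an alternative.

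Members were chosen as described in the report. Members, lists and patterns were chosen with earlier results of these data known. The nearest start gave each peak its gene, and list genes were counted within 1 kb of any start. Of the list symbols, 4 did not match the annotation. Patterns were searched on both strands 100 bp to each side of a summit. Peaks of 1 group give no test, and none was run. Intervals are 95% Wilson intervals. Genes were named for the 12 strongest members, the 8 with the best lower rank in a replicate, up to 4 of each list, up to 12 with a POU class IV site, and in any case mec-3, unc-119 and unc-86; others are said to be chosen after their values were seen, which also holds for the fifth and later genes of a list, for E2F members and for the marking of repetitive sequence. Matching and counting were checked on planted peaks. The tools were Python 3.11.15, SciPy 1.17.1, numpy 2.4.6, matplotlib 3.10.9 and pandas 2.3.3.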

Additional observations from a re-analysis of the deposited data

How the results depend on the processing

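Of 130 values recomputed under alternatives, 79 stayed within the tolerance set for each, 50 moved and 1 reversed. For counts the tolerance was 1.5 times, so that 2150 members with summits within 200 bp, and 4485 weaker peaks at any position, count as unmoved. The 1489 members became 930 when summits had to lie within 50 bp, 203 when −log10 q had to reach 1, 2268 when a reciprocal overlap of 50% replaced the summit distance, and 3059 to 3280 with a replicate left out. The upstream share of 63.1% was 66.5% within 500 bp and 60.2% within 2000 bp of a start, 79.8% at a −log10 q of 1, and 60.1% to 60.8% with a replicate left out. The relaxed POU class IV site was in 1.97% of members at a −log10 q of 1 and in 1.21% of windows of 50 bp to each side. The 158 list genes became 98 and 243 at 50 and 200 bp between summits, 102 and 247 at 500 and 2000 bp from a start, 26 at a −log10 q of 1, 253 by overlap and 338 to 353 with a replicate left out. Spearman's rho between replicates, 0.238, turned to −0.707 at a −log10 q of 1, where 203 members of a narrow range of pooled signal remained; it has no value with a replicate left out. Weaker peaks of both replicates at any position, 3058, became 1937 at 50 bp and 3060 in the ce10 lists. Leaving out members within 1 kb of an IDR summit, an alternative chosen after seeing the data, gave 1437 members and an upstream share of 63.5%. Of 72 values for single lists, 30 moved. No paired analysis was possible because the series has a single group. The depth is unknown, so the precision of a single peak's signal cannot be given.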
